A study of Sus scrofa with 32 samples.

Results

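The granulocyte antimicrobial genes described here are 8 genes of pig fetal liver whose products are stored in, or released by, neutrophils and related white blood cells: PR39, PMAP-36, LTF, PGLYRP1, LYZ, MMP9, FCN1 and ANXA1. Matching the RefSeq accessions of the array's probes gave 9 probes for them, 2 of these for ANXA1, among 1904 gene symbols. The genes were chosen by their measured levels over the days in the control fetuses, and PMAP-36 by a signal that was on or off between arrays. Their control course and all values of PMAP-36 are therefore given as a description, with no test. Tests were made on the runts, whose arrays are separate but whose fetuses were littermates of the controls, and on runts against controls. For all tests, 7 genes were counted and PMAP-36 was left out. The tests of runts against controls use the control values that chose the genes, so their p-values are given as a description.

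Liver RNA was measured in pig fetuses (Sus scrofa) at gestational days 37, 50, 70 and 110. At each day there were 4 control fetuses and 4 runts, for 8 groups and 32 single-colour arrays. All 8 groups came from gilts that had lost 1 uterine horn and ovary by surgery before insemination, so the controls too grew in a crowded uterus. The labels name littermate pairs from 4 separate gilts at each day, and the weight that set a runt apart was not given in the sources used here.

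Neutrophils are short-lived white blood cells that carry antimicrobial proteins in granules, made while the cell matures. The cathelicidins, a family that is large in the pig, are stored as inactive precursors and cut into active peptides after release. Before bone marrow takes over, the fetal liver is a main site of blood formation, so its RNA holds transcripts of maturing blood cells beside those of hepatocytes. In whole liver RNA, fewer cells of a type and less RNA per cell cannot be told apart.

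Levels are given as log2 of the signal relative to the array's 75th percentile, so a level of 0 is a spot at that percentile. Levels of different genes come from different probes and are not compared. Where groups are said to overlap or not, this is a description. The share of all features that separate in the same way was not computed. All 11 hepatocyte markers with a probe were well above background on 32 of 32 arrays. Between 51.3% and 69.4% of spots were well above background, and no spot was saturated. Each day had its own position on the slides, apart from 1 day 50 runt, so day and position cannot be told apart. The 4 arrays of slide 1 (day 37 runt 3, day 50 control 3, day 70 control 3 and day 110 runt 3) lay lowest for the 7 genes: 26 of 28 values lay below their group mean, on average by -0.82. Slide 8 was also low, with 21 of 28 values below and an average of -0.33. Slide 4 was high, with 6 of 21 values below and an average of 0.52. Slides 1 and 8 held all the arrays of replicate number 3 and no others, so replicate number and slide cannot be told apart.

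PR39 (NM_214450, chromosome 13) encodes a proline- and arginine-rich cathelicidin first known from pig intestine and neutrophils. Its level was 4.33, 5.24, 3.44 and 3.44 in the day 37 controls and 4.82, 5.38, 3.60 and 5.0 in the day 37 runts. At day 50 the controls gave 4.91, 5.69, 3.80 and 6.30, and the runts gave 7.12, 5.38, 5.06 and 6.29. Controls and runts overlapped at both days, and the arrays of a group differed widely. At day 70 PR39 reached 6.77, 6.85, 7.49 and 7.47 in controls and 6.48, 6.92, 7.09 and 6.57 in runts. At day 110 it was 4.61, 4.80, 4.83 and 5.12 in controls and 4.69, 3.80, 2.88 and 3.69 in runts. The day 70 arrays of either kind all lay above the day 110 arrays, and 3 of the 4 day 110 runts lay below all 4 controls of that day. The mean ran from 7.14 ± 0.39 (SD, n = 4) in day 70 controls down to 3.77 ± 0.74 (SD, n = 4) in day 110 runts, a range of 10.4-fold, and each of the 7 pairs of neighbours in the order of the 8 group means overlapped.

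PMAP-36 (NM_001129965, chromosome 13), a cathelicidin with a strongly positively charged helical peptide, behaved unlike its relative. It was well above background on 12 of 32 arrays. On 8 arrays its level was 2.02 to 5.60, and on the other 24 it was -6.96 to -3.75, with a gap of 5.77 between these sets and no array inside it. In the scanner's intensity units these are 716 to 16500 against 2.14 to 28.1. Of 34996 probes above background on at least 1 array, 81 (0.231%) had a gap as wide. PMAP-36 was chosen by this on or off signal, so the share is a description and not a test of rarity. Of the 24 low arrays 4 were well above background, so the width of the gap rests largely on background signals.

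The 8 high arrays of PMAP-36 came from 5 groups. Day 50 controls gave 3.19, -5.34, -5.39 and -6.96, so 1 of 4 was high. Day 70 controls gave 5.60, 4.94, -6.22 and -3.76, and day 70 runts gave -4.35, 4.93, -3.75 and 4.99, with 2 high arrays each. Day 110 controls gave -3.98, 3.54, -6.54 and -6.88, and day 110 runts gave -6.43, 2.54, -5.97 and 2.02. No high array was seen in the 8 day 37 fetuses, whose levels ran from -6.58 to -4.72, or in the 4 day 50 runts, which lay between -6.66 and -5.23. Among the high arrays, the 4 of day 70 were at 4.93 to 5.60 and the 3 of day 110 at 2.02 to 3.54.

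PR39 did not share the gap of PMAP-36. Day 70 control 1 had PR39 at 6.77 with PMAP-36 at 5.60, while day 70 control 3 had PR39 at 7.49 with PMAP-36 at -6.22. Day 110 runt 2 had PR39 at 3.80 with PMAP-36 at 2.54, and day 110 runt 1 had PR39 at 4.69 with PMAP-36 at -6.43. In the Sscrofa11.1 annotation 4 genes lie between PR39 and PMAP-36, PMAP-23 and NPG1 among them, and 0 of these had a named probe on this array.

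**Figure D1:**
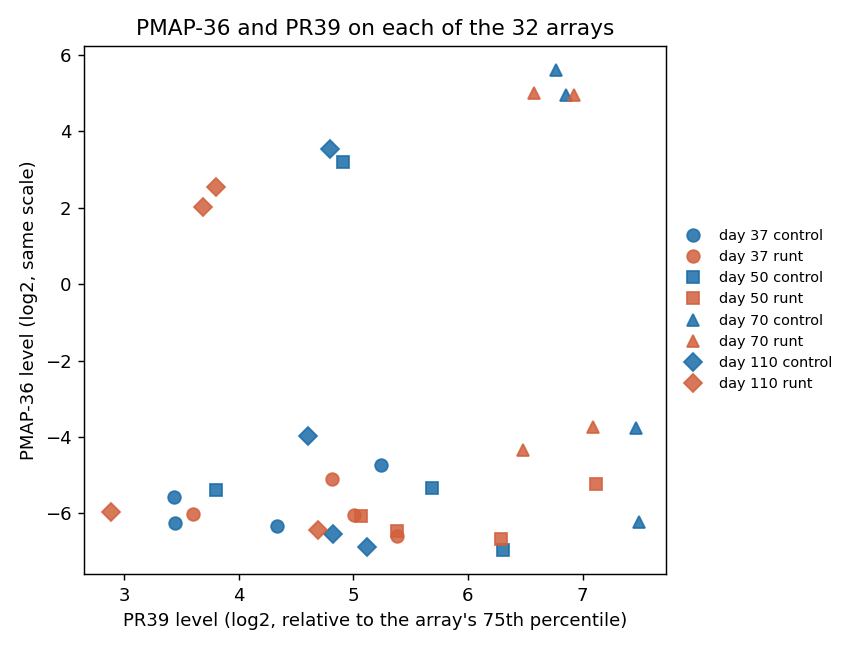
Level of PMAP-36 (vertical axis, log2 relative to the array's 75th percentile) against that of PR39 (horizontal axis, same unit) on each of the 32 arrays, with colour for control or runt and shape for gestational day. PMAP-36 forms a set of 8 arrays at 2.02 to 5.60 and a set of 24 at -6.96 to -3.75, and both sets span low and high levels of PR39.

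LTF (NM_214362, chromosome 13) encodes lactoferrin, an iron-binding protein of the secondary granules that withholds iron from microbes. At day 37 its level was 4.70, 4.78, 2.40 and 2.24 in controls and 5.15, 3.99, 2.19 and 3.66 in runts. At day 50 it was 4.91, 4.74, 2.47 and 4.83 in controls and 5.22, 4.78, 3.96 and 5.34 in runts. The day 37 controls fell into 2 high and 2 low arrays, and a single day 50 control, replicate 3, lay far below its group. At day 70 LTF was 6.70, 5.75, 5.97 and 6.34 in controls and 5.64, 5.89, 5.56 and 5.80 in runts. At day 110 it was 3.86, 4.37, 4.52 and 3.86 in controls and 4.07, 3.60, 2.04 and 3.09 in runts. Every day 70 array lay above every array of the other days.

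PGLYRP1 (NM_001001260, chromosome 6), a granule protein that binds bacterial peptidoglycan, ran from 0.14 to 2.89 in the 8 day 37 fetuses and from 0.92 to 4.10 in the 8 day 50 fetuses. At day 70 it was 4.74, 4.16, 4.36 and 4.93 in controls and 3.50, 4.48, 3.96 and 4.33 in runts. At day 110 it was 1.72, 2.27, 2.77 and 1.93 in controls and 2.20, 1.16, 0.10 and 1.63 in runts. The day 70 and day 110 arrays did not overlap, and the day 110 runt at 0.10 was replicate 3, the array on slide 1.

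LYZ (NM_214392, chromosome 5) encodes lysozyme, an enzyme of granulocytes and macrophages that cuts bacterial cell walls. Its day 37 levels were 1.17, -0.77, -1.51 and -1.73 in controls and 1.36, -0.66, -1.57 and -1.64 in runts, so 1 fetus of each kind lay near the day 50 controls. At day 50 the controls were at 1.28, 1.38, 1.55 and 1.60 and the runts at 0.29, -0.10, 1.24 and 0.20. These groups did not overlap, by a narrow margin (1.28 against 1.24). At day 70 the controls were at 1.13, 1.33, 0.09 and 1.37 and the runts at 0.88, 0.27, -0.19 and 0.96. At day 110 the controls were at -0.42, -0.27, -0.54 and -1.01 and the runts at 0.35, -1.38, -1.86 and -1.19. LYZ had its highest group mean in day 50 controls, 1.45 ± 0.15 (SD, n = 4), whereas PR39, LTF, PGLYRP1, MMP9, FCN1 and ANXA1 had theirs in day 70 controls.

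MMP9 (NM_001038004, chromosome 17) encodes gelatinase B, a matrix-degrading protease of a late class of granule. At day 70 it was 3.76, 3.43, 3.54 and 4.46 in controls and 2.58, 3.75, 3.02 and 3.52 in runts, and at day 110 it was 2.51, 2.63, 2.71 and 2.33 in controls and 2.57, 1.83, 0.89 and 1.48 in runts. The lowest day 70 runt and the highest day 110 runt all but touched. MMP9 was the gene whose lowest group mean was in day 37 controls, 1.43 ± 1.05 (SD, n = 4), rather than in day 110 runts.

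FCN1 (NM_214160, chromosome 1) encodes ficolin 1, a lectin of monocytes and granulocytes that binds microbial sugars and can start complement. At day 70 it was 1.73, 1.18, 1.13 and 1.78 in controls and 0.66, 1.03, 0.65 and 1.41 in runts. At day 110 all 8 fetuses were below 0, at -1.21, -0.28, -0.28 and -1.02 in controls and -0.58, -0.91, -1.91 and -1.08 in runts. The drop left the day 110 arrays below every day 50 and day 70 array.

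ANXA1 (NM_001163998, chromosome 1) encodes annexin A1, a lipid-binding protein abundant in neutrophils that limits their recruitment. Its brighter probe, used for the gene, was at 3.16, 2.66, 3.14 and 3.59 in day 70 controls and at 2.24, 2.61, 2.39 and 3.11 in day 70 runts. At day 110 it was 2.19, 2.23, 2.06 and 2.12 in controls and 1.95, 1.72, 1.56 and 1.81 in runts. Its group means spanned 2.60-fold, and those of its dimmer probe 2.69-fold, against 5.17- to 10.4-fold for PR39, LTF, PGLYRP1, LYZ, MMP9 and FCN1.

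**Figure D2:**
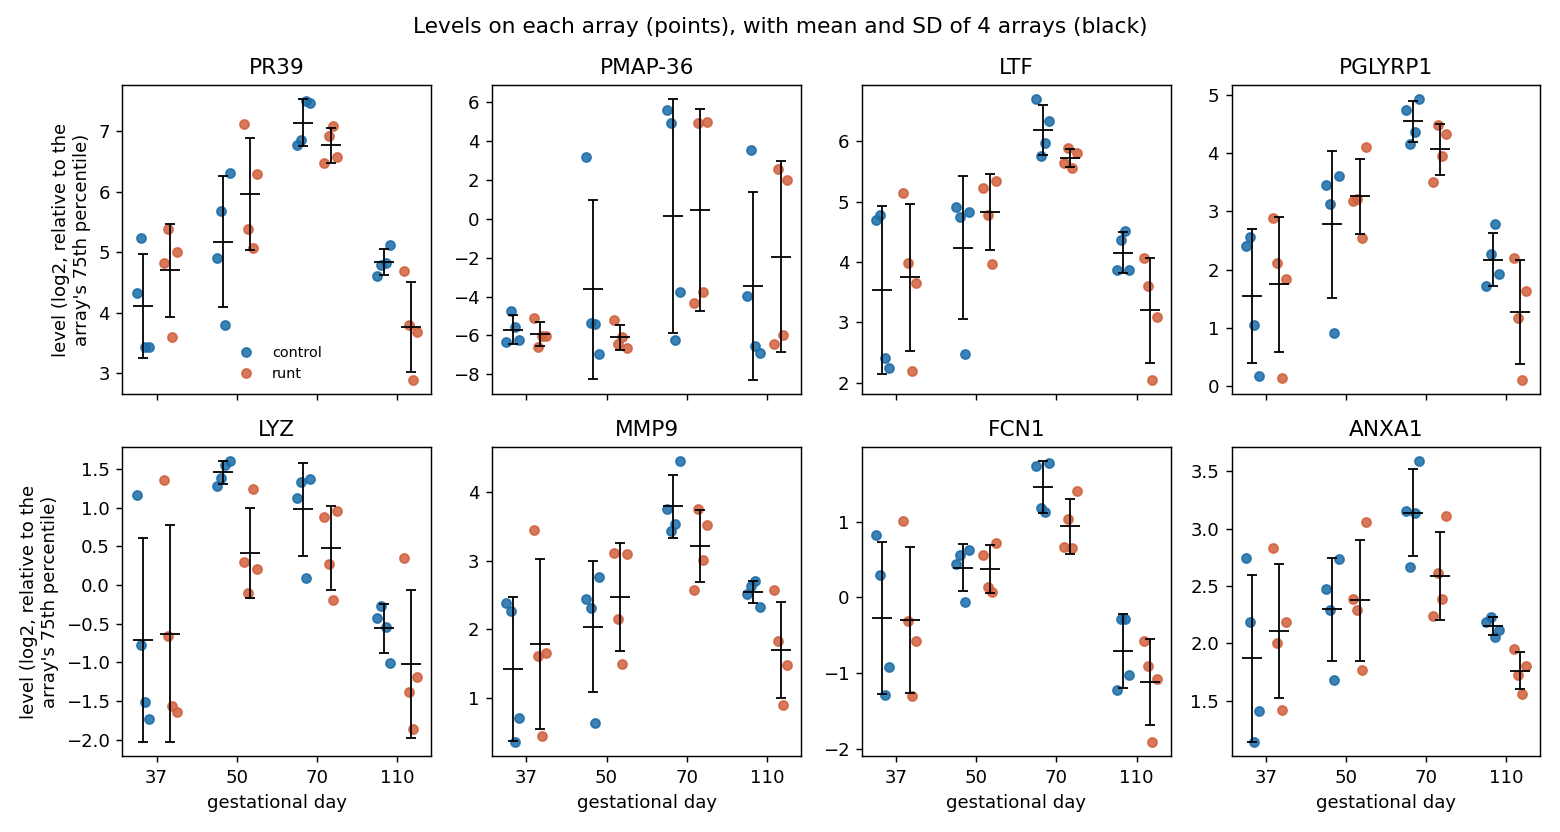
Level of each gene (log2 relative to the array's 75th percentile) on every array by gestational day, with controls and runts in separate colours and the mean and SD of 4 arrays in black; each panel has its own vertical scale. Most genes are highest at day 70, LYZ is highest in day 50 controls, and PMAP-36 splits within groups.

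In the controls, from day 37 to day 50 the 7 genes other than PMAP-36 were higher by a median of 0.71 on the log2 scale, LYZ by 2.17. From day 50 to day 70 the median difference was 1.76, with PR39 at 1.97, LTF at 1.95 and LYZ at -0.47. From day 70 to day 110 it was -2.04, from -2.37 for PGLYRP1 to -0.99 for ANXA1. Between day 37 and day 110 the median was 0.62, with FCN1 at -0.43. These control values chose the genes and carry no test.

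In the runts, 5 of the 7 genes fell from day 70 to day 110. These were PR39, PGLYRP1, LTF, FCN1 and MMP9 (limma, Benjamini-Hochberg adjusted p below 0.05 with a 2-fold or larger change), and over all 28673 features 6.80% were called lower by this rule. The median change of the 7 genes was -2.06, beside 0.05 for all features. PR39 fell by 3.00 ± 0.49 (SE, n = 4 per group), an 8.0-fold drop with a limma adjusted p of 3.33e-05. PGLYRP1 changed by -2.79 ± 0.58 (SE), 6.93-fold, with a limma adjusted p of 0.000666. LTF changed by -2.52 ± 0.60 (SE), 5.76-fold, with a limma adjusted p of 0.00241.

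The lectin gene FCN1 followed these 3 granule genes, at -2.06 ± 0.41 (SE) and a limma adjusted p of 0.000416. For each of PR39, PGLYRP1, LTF and FCN1, all 4 day 110 runts lay below all 4 day 70 runts. The same held for both probes of ANXA1 and, by a narrow margin (2.57 against 2.58), for MMP9. How many of all features separate in this way was not computed. MMP9 was called at -1.52 ± 0.54 (SE), with a limma adjusted p of 0.0408, but not with other scalings or backgrounds: adjusted p was 0.158 after normexp, 0.0569 after quantile normalization and 0.058 in the authors' deposited table. LYZ, at -1.50 ± 0.57 (SE), had an adjusted p of 0.0565, and its day 70 and day 110 runts overlapped. ANXA1 had -0.83 ± 0.31 (SE) and an adjusted p of 0.0556 with its brighter probe, and -1.08 ± 0.39 (SE) with an adjusted p of 0.0437 with its dimmer probe.

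The count of 5 was 4 to 6 when single arrays were left out, and 5 with slide as a block. Within slides 1 to 3 it was 1 and within slides 4 to 9 it was 3, from fewer arrays, and the median change of the 7 genes was -2.90 and -1.52 there. MMP9 lost its call without any of day 70 runts 2, 3 and 4 or day 110 runts 2, 3 and 4, left out singly. LYZ gained a call without day 37 control 1, day 37 runt 1, day 70 runt 3 or day 110 runt 1. The change had a minus sign for each of the 7 genes in all alternatives, 308 of 308 values.

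From day 37 to day 50 the runts had a median difference of 1.04 over the 7 genes, and 0 of the 7 passed, where 4.99% of all features were called higher by limma. The median was 0.35 with normexp, 1.99 within slides 1 to 3 and 0.08 within slides 4 to 9, where 3 of the 7 differences were below 0. Without adjustment 2 of the 7 had a p under 0.05, PGLYRP1 at 1.51 ± 0.58 (SE, limma adjusted p = 0.0775) and PR39 at 1.26 ± 0.49 (SE, limma adjusted p = 0.08). The count rested on single arrays, with 3 genes called without day 37 runt 1 and 1 without day 50 runt 3 or without day 50 control 3. With replicate number as a block, PGLYRP1 was called (adjusted p = 0.0422).

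From day 50 to day 70 the median difference in runts was 0.75, 0 of the 7 genes passed in limma and 0 had an unadjusted p under 0.05, beside 3.19% of features called higher. The lowest adjusted p was 0.242, for PR39, which had a difference of 0.80 ± 0.49 (SE). LYZ had 0.07 ± 0.57 (SE). Over the same days the controls differed by a median of 1.76, but the change was not shown to differ between runts and controls: for PR39 the runt effect at day 70 minus that at day 50 was -1.17 ± 0.69 (SE, limma adjusted p = 1.00).

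Between day 37 and day 110 the runts had a median difference of -0.47, and 0 of the 7 genes passed in limma, with 0 at an unadjusted p under 0.05 and 12.2% of features called lower. PR39 stood at -0.93 ± 0.49 (SE, limma adjusted p = 0.116) and FCN1 at -0.82 ± 0.41 (SE, limma adjusted p = 0.0983). PR39 was called with slide as a block (-1.33, adjusted p = 0.0243) and without day 110 runt 1, and both PR39 and FCN1 were called without day 37 runt 3.

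**Figure D3:**
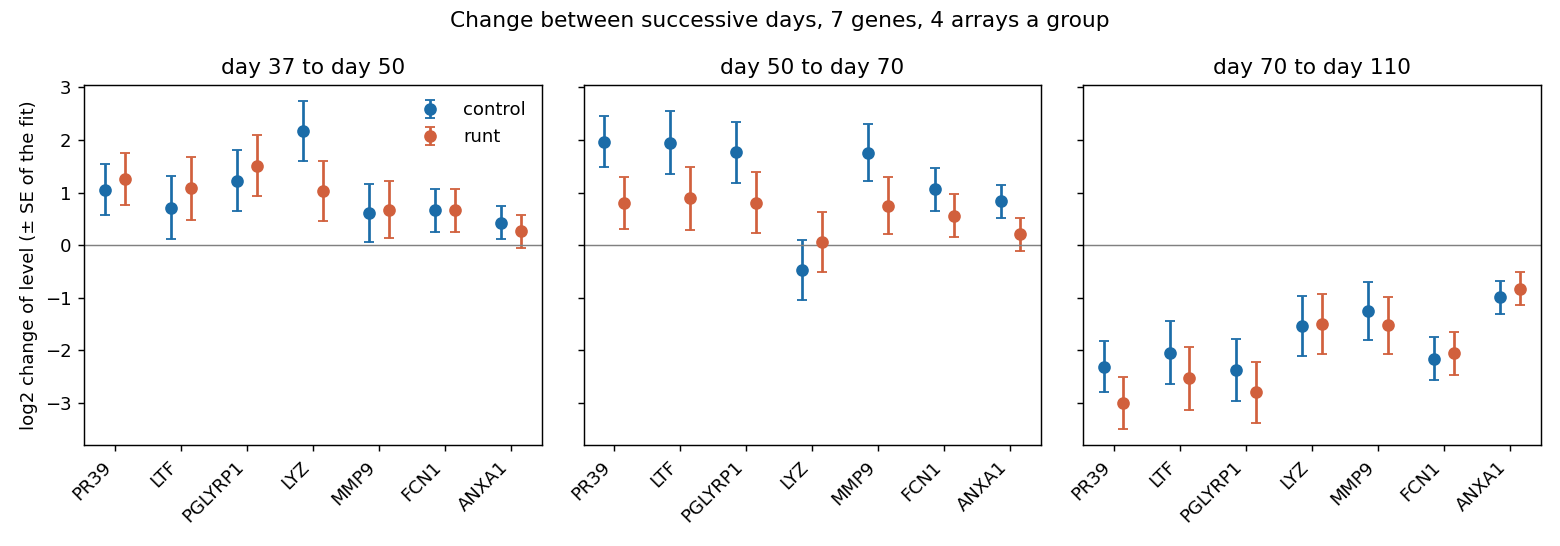
Log2 change of level between successive days (vertical axis, ± SE of the fit) for 7 genes, controls and runts in separate colours, 4 arrays a group. From day 70 to day 110 all 14 changes are below 0, and in runts PR39 is lowest at -3.00.

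The direct comparison of runts with controls asked whether these genes differed with fetal growth at a given day. It uses the control values that chose the genes, so its p-values are a description. At day 37 the runt minus control difference had a median of 0.22, and 0 of the 7 genes passed in limma (0 percent of features called, 0 of the 7 at an unadjusted p under 0.05). At day 50 the median was 0.43 and 0 of the 7 passed (0.0663 percent of features called, 0 of the 7 at an unadjusted p under 0.05). The day 50 median was -0.08 with normexp and -0.24 within slides 4 to 9, with 6 of the 7 differences below 0 in each, so the set had no settled direction. In the main values PR39 had 0.79 ± 0.49 (SE) and LYZ -1.04 ± 0.57 (SE), with a limma adjusted p of 0.732 for LYZ. With normexp background correction LYZ was called at day 50, at -1.12 with an adjusted p of 0.0281.

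At day 70 the median difference was -0.50, with 0 passing in limma (0 percent of features called, 0 of the 7 at an unadjusted p under 0.05). The genes were chosen by control values, and 6 of the 7 had their highest mean in day 70 controls, so the sign of the day 70 differences is not read as a result. At day 110 the median was -0.85, and 0 passed in limma, beside 0.0140 percent of features called and 1 of the 7 at an unadjusted p under 0.05. This was PR39, which had the difference farthest from 0 at day 110, -1.07 ± 0.49 (SE, n = 4 per group), with an unadjusted p of 0.0378 and a limma adjusted p of 1.00. The day 110 differences kept their minus sign in 308 of 308 values over the alternatives, a description since the same control values chose the genes.

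Over the 4 days together, the mean runt effect had a median of -0.16 and 0 of the 7 genes passed in limma (0.248 percent of features called, 0 of the 7 at an unadjusted p under 0.05). The gene farthest from 0 was LYZ, at -0.48 ± 0.29 (SE, adjusted p = 0.67). Limma's F-test of whether the runt effect varied among the 4 days passed 0 of the 7 genes and 0.00349 percent of features, with 1 of the 7 at an unadjusted p under 0.05. This was PR39, with an unadjusted p of 0.0421 and an adjusted p of 1.00.

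The 7 genes varied together between fetuses of a group. Over the 32 arrays, after each group's mean was taken away, the Pearson correlation between pairs of genes had a median of 0.756 over 21 pairs and ran from 0.20 for PR39 with LYZ to 0.941 for LTF with PGLYRP1. The arrays share their slides and scaling, and after slide means were also taken away the median was 0.778. Pairs with LYZ had a median of 0.536 and pairs without it 0.827. Set against LTF, 38 of 28672 features (0.133%) had a within-group correlation over 0.8, and 4 of the 6 other genes were among these, with PGLYRP1, MMP9, FCN1 and ANXA1 above LYZ and PR39.

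The spread within groups was widest at day 37. The median SD of the 7 genes within a group was 1.05 in day 37 controls and 1.16 in day 37 runts, against 0.28 and 0.31 for all features. It was 0.96 and 0.62 in controls and runts of day 50, 0.39 and 0.38 in those of day 70, and 0.32 and 0.74 in those of day 110. Day 37 runt 1 was the highest of its group in 6 of the 7 genes, and day 110 runt 1 in all 7. On slide 1, day 37 runt 3 and day 50 control 3 were the lowest of their groups in 6 of the 7 genes and day 110 runt 3 in all 7, but day 70 control 3 in 2.

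**Figure D4:**
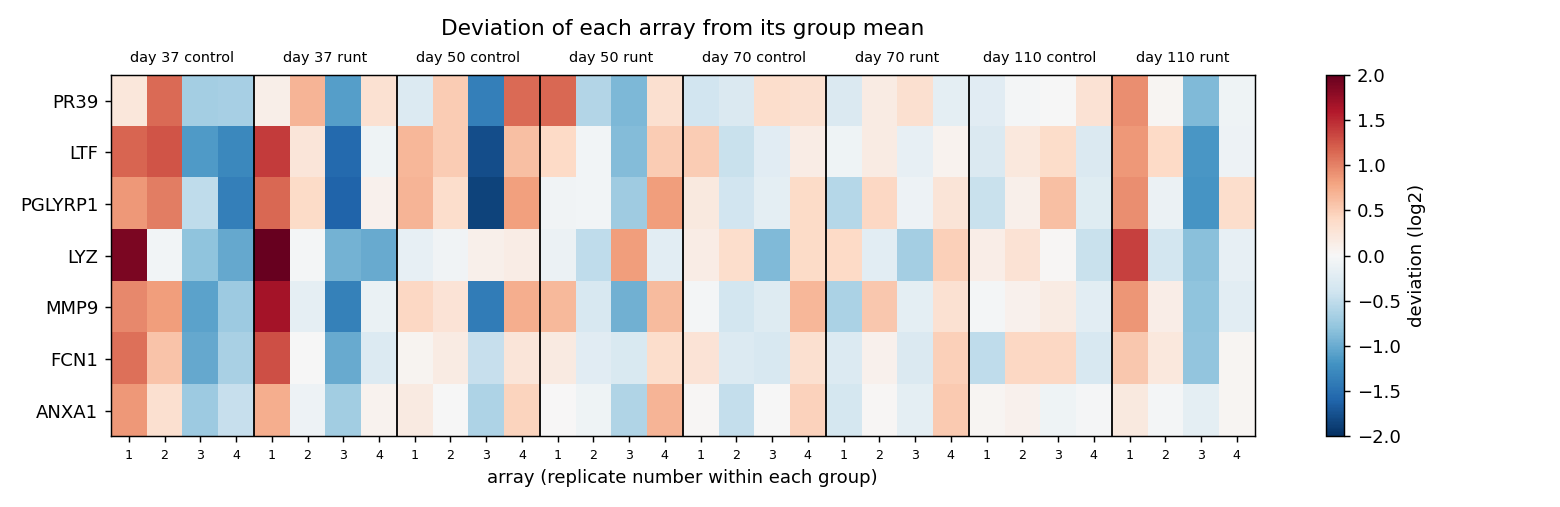
Deviation of each array from its group mean (log2, colour scale from -2 to 2) for 7 genes (rows) on 32 arrays (columns, ordered by group and replicate number). Columns tend to be of a single colour, as in day 37 runt 3, which was lowest in 6 of the 7 genes, and day 110 runt 1, which was highest in 7.

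Among other named genes, those with the closest courses over the 32 arrays were few and recurrent. NPG4, the gene of protegrin 4 and so another pig cathelicidin, was among the 3 closest for 4 of the 7 genes, with r = 0.962 for LTF, 0.935 for PGLYRP1, 0.92 for PR39 and 0.882 for MMP9. RETN, the gene of resistin, was among the closest for 4, with r = 0.955 for FCN1, and LOC396866 for 5. MMP9 was closest to NCF1, which encodes a cytosolic subunit of the NADPH oxidase, at r = 0.96. ANXA1 had RETN, NCF1 and the myeloid receptor gene TREM1, at r = 0.906, 0.871 and 0.867, but TREM1 was well above background on 24 of 32 arrays. LYZ was closest to LOC396867, at r = 0.826, and CHI3L1, at r = 0.693, was the third. These are descriptions over arrays that span the 4 days, so genes sharing a course between days score high.

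Other genes of granule contents were drawn from a list of 40, of which 6 beside the 8 were tested. This list and those below were chosen with earlier results of these data known, so their counts and p-values are a description. From day 70 to day 110 in runts 2 of the 6 fell, NPG4 by 2.42 ± 0.53 (SE, limma adjusted p = 0.00103) and ARG1 by 1.52 ± 0.16 (SE, limma adjusted p = 2.61e-08), and the median of the 6 was -0.52. Over all features 6.80% were called lower. ARG1, the arginase of granules, is also the urea cycle enzyme of hepatocytes. HP was the 1 of the 6 called higher between days 50 and 70, by 1.06 ± 0.32 (SE, limma adjusted p = 0.0177), beside 3.19% of all features. Haptoglobin is also a hepatocyte product. The primary granule genes MPO and ELANE were on the list but had no named probe on this array. Both tested genes of the NADPH oxidase missed the threshold from day 70 to day 110, NCF1 at -0.69 ± 0.38 (SE, limma adjusted p = 0.201) and CYBA at -0.25 ± 0.19 (SE, limma adjusted p = 0.371).

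Of 10 granulocyte receptor genes, 1 fell in runts from day 70 to day 110 and 0 rose. Over all features 6.80% were called lower and 4.31% higher. Of the 10 changes 8 were above 0, with a median of 0.19 and 3 at an unadjusted p under 0.05. The gene that fell was CXCR4, which holds granulocytes at sites where they are made, at -1.08 ± 0.17 (SE, limma adjusted p = 2.4e-05). Of 10 genes for cytokines and other signals to granulocytes, 3 rose and 0 fell, where 4.31% of all features were called higher. CCL2 rose by 1.62 and was well above background on 4 of 4 day 70 runts and 4 of 4 day 110 runts. CXCL2 rose by 1.91, but was well above background on 2 of 4 day 70 runts and on 18 of 32 arrays. IL6 was not well above background on any day 70 runt and on 10 of 32 arrays in all, so its rise is given only as at least 2.65-fold, from the lowest signal above background. IL6 was tested only because of its signal in other groups, so the count of 3 is not read against the share of all features. Of 6 myeloid transcription factor genes 0 passed in limma over these days, with 2 at an unadjusted p under 0.05. Of 9 genes related to ANXA1, MMP9, FCN1 or PGLYRP1, such as TIMP1, FCN2 and PGLYRP2, 0 passed in limma, with 1 at an unadjusted p under 0.05.

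Markers of other cells moved over the same days. Of 12 monocyte and Kupffer cell markers tested of 28 listed, 5 rose and 1 fell from day 70 to day 110 in runts, beside the 4.31% of features called higher and 6.80% called lower. CD14, a receptor for bacterial lipopolysaccharide, rose by 2.61, and SLA-DRA, SLA-DQB1 and SLA-DQA1, which present antigen, rose by 1.58, 1.49 and 1.35. CD86 fell, from a mean level of -0.01 in day 70 runts to -1.32 in day 110 runts. Of the 12 changes 3 were below 0. The summed signal of the 12 markers, where 1 is the array's 75th percentile, was 59.4 to 76.4 in day 70 runts and 145 to 210 in day 110 runts, opposite to the 7 genes. SIGLEC1 was above background on 17 of 32 arrays and CD80 on 5.

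Of 5 eosinophil and mast cell markers tested of 17 listed, 3 fell in runts, CCR3 by 3.40, HDC by 2.05 and KIT by 1.56, beside 6.80% of all features called lower. CCR3 was well above background on 2 of 4 day 110 runts, and KIT was also listed here as a marker of blood progenitors. The summed signal of the 5 markers, KIT among them, was 6.17 to 14.5 in day 70 runts and 2.65 to 3.36 in day 110 runts. IL4 was above background on 0 of 32 arrays. All 4 erythroid markers tested of 17 also fell, with a median of -3.98 and a summed signal of 60.2 to 89.9 against 1.79 to 7.53. Among these 4, TFRC was well above background on 2 of 4 day 110 runts, so the size of its fall is uncertain. All 5 megakaryocyte markers tested of 14 fell, with a median of -1.61 and a summed signal of 47.5 to 58.5 against 15.7 to 17.1. Lymphocyte markers went the other way: of 12 tested of 29 listed, 2 were called higher and 0 lower, beside 4.31% of all features called higher. Of their 12 changes 11 were above 0, with a median of 0.58. Among the 12, CD2 was well above background on 0 of 4 day 70 runts and CD3G on 2 of 4. The part of these cell types in the change of the 7 genes was not tested.

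**Figure D5:**
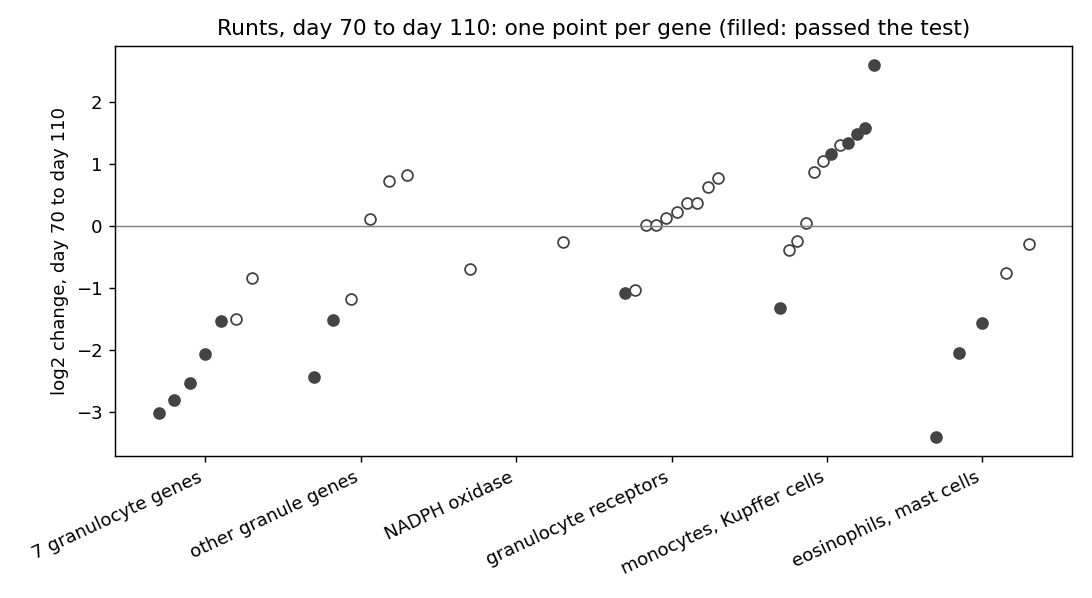
Log2 change from day 70 to day 110 in runts, 1 point per gene, for the 7 granulocyte antimicrobial genes and 5 lists of other genes, filled where the gene passed limma's test with a 2-fold or larger change. The 7 genes lie between -3.00 and -0.83, and the monocyte and Kupffer cell markers lie mostly above 0, with CD14 at 2.61.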

How the data were processed

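Signals came from 32 Agilent arrays of Cy3-labelled liver RNA. Per the file headers, the scanner files hold background-subtracted intensity values from Feature Extraction 10.7.3.1. The authors also deposited log2 values made with Partek, whose version was not given in the sources used here. Levels were computed as log2 of the processed intensity minus the array's 75th percentile, without control spots and flagged outliers. Probes were named through RefSeq accessions and the Sscrofa11.1 gene table (2683 of 43603 probes). A probe was tested if well above background on 3 of 4 arrays of a group, and the brightest probe stood for a gene, which left 28673 features.

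Limma 3.58.1 (R 4.3.3) fitted 8 group means with 24 residual degrees of freedom, and p-values were two-sided and adjusted by Benjamini-Hochberg over all features. A call between days needed an adjusted p under 0.05 and a 2-fold change, and a call between runts and controls an adjusted p under 0.05. The script was tested on simulated data. Alternatives were normexp (on median signals, offset 50), quantile normalization, the authors' table, other filters and probes, slide and replicate blocks, slide sets and leaving out single arrays. The other ANXA1 probe and correlations after slide were added after seeing the data.

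The members and gene lists were chosen with earlier results of these data known. All members are named, with up to 4 passing genes of a list by size of change, and for each member the 3 named genes with the highest correlation. CD86 was named in addition because it was the monocyte and Kupffer cell marker called lower. Replicate numbers were checked as pairs: same-numbered control and runt deviations correlated over 0.1 in 13 of 16 pairs, and in all 4 pairs at days 37 and 110. The median of the 16 correlations was 0.17, and the same number gave the highest correlation in 8 of 16. Each replicate number had its own set of slides, so this check cannot tell littermates from slides. The labels state littermate pairs but not that the number marks them. The number of arrays limits the precision.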

Additional observations from a re-analysis of the deposited data

Results flagged for a closer look

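Within groups of 4 arrays, 3 of 72 groups of probe values held an array set far from the rest by Dixon's test, which flags about 1 in 20 groups by chance. For PMAP-36 in day 50 controls, replicate 1 was at 3.19 and the nearest array at -5.34, which restates the on or off signal that PMAP-36 was chosen by. For LTF in day 50 controls, replicate 3 was at 2.47 and the nearest array at 4.74. For the dimmer ANXA1 probe in day 50 controls, replicate 3 was at -1.42 and the nearest array at -0.23. The same array, on slide 1, gave the low LTF and ANXA1 values. All of these are control values, which chose the genes, and are given as a description.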

How the results depend on the processing

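The counts of genes called among the 7 were recomputed under each alternative, and no gene that was called changed direction in them. The fall in runts from day 70 to day 110 gave 5 genes, 1 within slides 1 to 3 and 3 within slides 4 to 9, which hold fewer arrays, and 4 to 6 when single arrays were left out. From day 37 to day 50 in runts the count of 0 became 1 with the replicate block (PGLYRP1) and 0 to 3 when single arrays were left out. From day 37 to day 110 it became 1 with slide as a block and 0 to 2 when single arrays were left out. Runt minus control at day 50 became 1 with normexp. The cause was not tested. The replicate block changed no other count by over 1.5 times, though LYZ passed from day 70 to day 110 with it (adjusted p = 0.0258). Leaving out single arrays gave 0 to 0 genes for the other comparisons. From day 70 to day 110, MMP9 was called in 32 of 44 alternatives, PR39, LTF, PGLYRP1 and FCN1 in 43 each, LYZ in 5 and ANXA1 in 1. Differences between runts and controls that missed the threshold changed sign in 19 of 308 values at day 37 and in 18 at day 50, where the median went from 0.43 to -0.08 with normexp and -0.24 within slides 4 to 9. With 4 arrays a group, SEs of 0.31 to 0.60 limit what could be detected.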
